A study of Mus musculus with 6 samples.

Results

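Collagens are the proteins of the extracellular matrix built from triple helices, and each gene encodes 1 chain of such a helix. The genes described here are all rows of the deposited table whose symbol is Col, a number, the letter a and a number. The rule reads only names and gave 44 of 23621 rows, but it was chosen with earlier results of these data known. RNA was measured by sequencing in the cerebral cortex of mice at postnatal day 0, in 3 wild-type animals and 3 with a Tle4-/- null genotype, labelled as littermates, all on a mixed background of C57BL/6J, 129S6 and CD1. Tle4 makes a co-repressor of the Groucho family, and the labels give no further detail of the allele. The labels do not say which animals share a litter, so the spread behind each test is that between these libraries.

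In the developing brain most collagen is made outside the neurons. Fibroblasts of the meninges, the sheets that cover the cortex, make the fibrillar chains of collagens I and III, which assemble into cables. Cells of blood vessels and meninges make collagen IV, the sheet-forming collagen of basement membranes, on which vessels and the feet of radial glia rest. Collagen III is a ligand of the receptor encoded by Adgrg1 (GPR56) at the surface of the cortex, and loss of that contact gives a malformed cortical surface. Neurons make a few members of their own, among them Col25a1 and Col19a1. The other classes are beaded filaments (collagen VI), short-chain networks (collagen VIII), chains that sit on the surface of fibrils (the FACIT class, such as collagens IX, XII and XIV), multiplexins (collagens XV and XVIII) and chains that span the cell membrane (collagens XIII, XVII, XXIII and XXV).

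The 6 libraries held 18617408 to 21632607 counts. Tle4 itself ran from 3091 to 3884 counts in wild-type libraries and from 1481 to 1664 in mutant ones, and it fell in the mutant but stayed well above 0 (log2 fold change -1.06, SE 0.14, edgeR adjusted p = 0.0377). Xist counts were 11 to 37 in the wild-type libraries and 66194 to 79080 in the mutant ones, and counts of the Y-linked Ddx3y were 1463 in wild-type replicate 1, 1891 in wild-type replicate 2 and 0 to 2 elsewhere, so wild-type replicate 3 was low in both. Since high Xist was found in all mutant libraries and in no wild-type one, sex and genotype cannot be told apart in any comparison below, which includes Col4a5 and Col4a6, the X-linked collagens. Mutant replicate 3 stood apart in Ttr, a choroid plexus marker, with 1789 counts against 1 to 5 elsewhere. The choroid plexus list summed to 106 CPM there, of which Ttr gave 93.3 CPM, and to 3.82 to 10.2 CPM elsewhere. Folr1, Clic6 and Sostdc1 of that list were also highest in mutant replicate 3, while Kl, Kcne2 and Aqp1 were highest in other libraries. Wild-type replicate 1 stood apart in meningeal markers. A list of 14 meningeal fibroblast markers, holding no collagen, summed to 12 CPM there (counts scaled to library size), to 273 and 97.5 CPM in wild-type replicates 2 and 3, and to 102 to 193 CPM in the mutant libraries. All 14 were lowest in that library and highest in wild-type replicate 2, and Aldh1a2, a defining marker, had 0 counts in the former. Of the 44 collagen rows, 12 overlap another row of the table, and whether counting used the strand is not given in the sources used here. Values by library are given in the order of replicates 1, 2 and 3. In dissected tissue, fewer cells of a type and less RNA per cell cannot be told apart.

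Every collagen gene had counts in every library, but their levels spanned a 2150-fold range. Per length, as the authors' deposited FPKM, 21 of 44 reached a median of 1 FPKM over the 6 libraries. The order was led by Col4a1 (median 36.3 FPKM) and Col4a2 (27.0 FPKM), the partner chains of the main basement membrane collagen. Next came Col9a3 at 9.47 FPKM, a chain of collagen IX, which is best known from cartilage, and Col15a1 at 6.53 FPKM, a multiplexin of vessel basement membranes. The fibrillar chains Col1a1, Col3a1 and Col1a2 followed at medians of 6.12, 4.93 and 4.07 FPKM, with Col6a1 of the beaded filaments between them at 4.46 FPKM. The lowest were Col6a6 at 0.0502 FPKM, the membrane-spanning Col17a1 at 0.0196 FPKM and Col10a1 of hypertrophic cartilage at 0.0169 FPKM. Spread between libraries was wider than the steps between neighbours in this order for Col1a1, Col3a1, Col6a1 and Col1a2, so their order among themselves is not set by these data. The gene length implied by FPKM and counts was 6.93 kb for Col1a1 but 16.2 kb for Col1a2, which limits per-length comparison between genes.

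**Figure D1:**
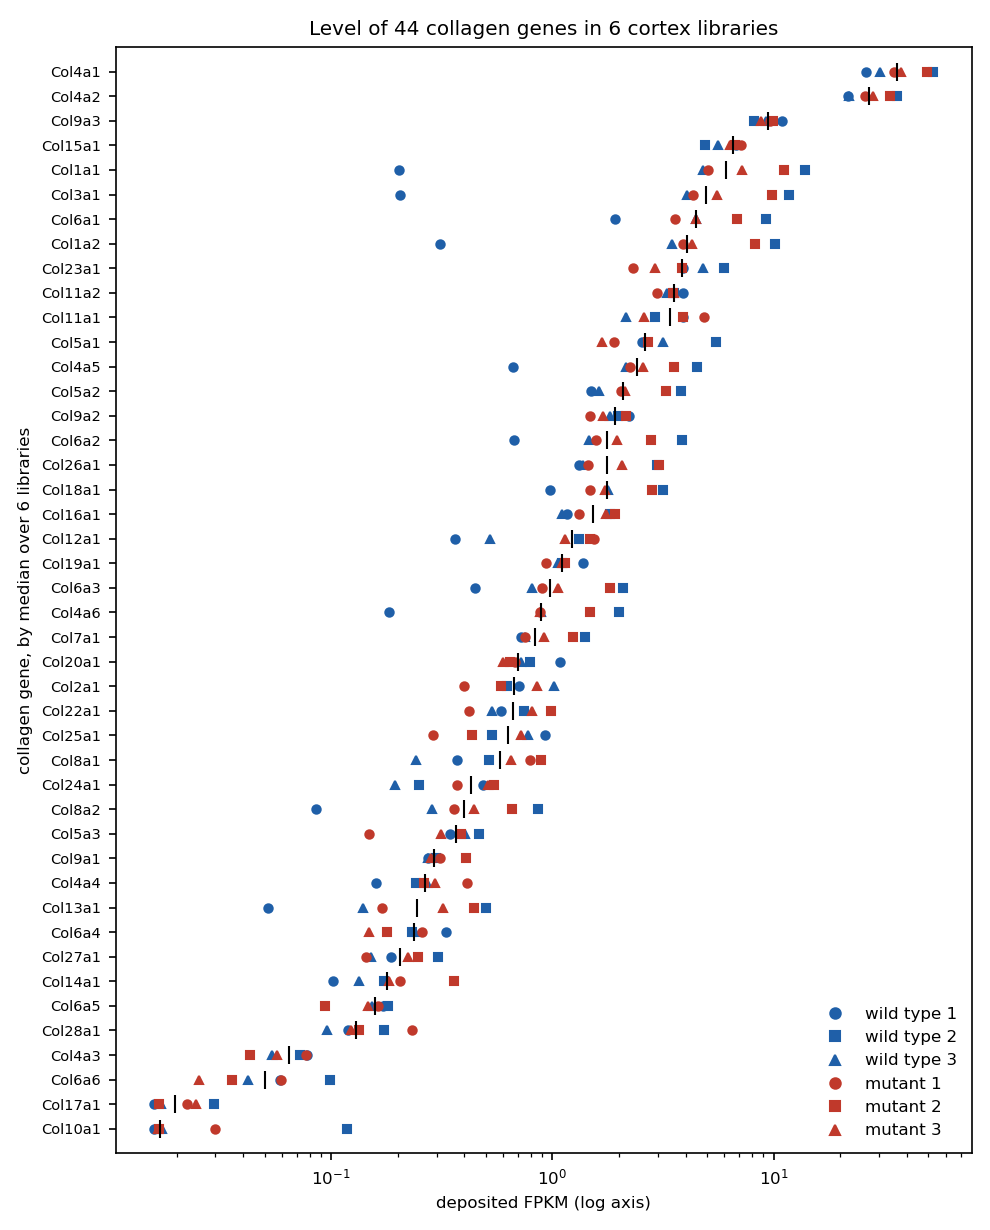
Deposited FPKM (log axis) of the 44 collagen genes in each of the 6 libraries, ordered by their median, with 1 point per library. Col4a1 and Col4a2 lead at medians of 36.3 and 27.0 FPKM, and the points of Col1a1, Col1a2 and Col3a1 for wild-type replicate 1 lie far to the left of the other 5.

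Summed over the 44 genes, collagens took 0.0764%, 0.165% and 0.0929% of all counts in wild-type replicates 1, 2 and 3, and 0.104%, 0.15% and 0.11% in mutant replicates 1, 2 and 3. The 3 mutant libraries lie inside the wild-type range. Col4a1 and Col4a2 together gave 37.7% to 43.7% of the collagen counts in every library, a narrow range. Col1a1, Col1a2 and Col3a1 together gave 1.13% of them in wild-type replicate 1, against 13.9% to 23.6% in the other 5 libraries. The makeup of the collagen RNA thus differed most between wild-type animals, and in the fibrillar chains.

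Collagens known from cartilage differed widely in level. Col2a1, the main cartilage collagen, stood at 2.90 to 7.36 CPM over the libraries. Its fibril partner Col11a1 stood higher, and its genotypes overlapped. Col11a1 was at 56.4, 40.1 and 30.6 CPM in wild-type libraries against 68.7, 55.2 and 37.0 CPM in mutant ones. CPM does not account for gene length, and per length the gap was smaller, at medians of 0.668 FPKM for Col2a1 and 3.41 FPKM for Col11a1. Col9a3 ran from 45.9 to 64.2 CPM, while Col9a1 and Col9a2, which encode the other chains of collagen IX, ran from 1.45 to 2.15 and from 5.43 to 8.30 CPM. A list of 9 cartilage and bone markers holding no collagen summed to only 2.15 to 3.41 CPM over the libraries, and Matn1 was at 0 counts in 3 of the 6. Col11a1 was thus at 30.6 CPM or more, and Col9a3 at 45.9 CPM or more, where those markers were near 0.

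The steepest differences between libraries were in the fibrillar chains and were within the wild type. Col1a1 (ENSMUSG00000001506; chromosome 11, 94936224 to 94953042, plus strand of GRCm38) was counted 28, 2092 and 618 times in wild-type replicates 1, 2 and 3, and 753, 1470 and 964 times in the mutant replicates. Col1a2 (chromosome 6, 4504814 to 4541544), the partner chain of collagen I, had 101, 3584 and 1054 counts, and 1354, 2545 and 1337. Col3a1 (ENSMUSG00000026043; chromosome 1, 45311538 to 45349706), the single chain of collagen III, had 44, 2733 and 813 counts, and 996, 2027 and 1154. All 3 genes had the same order of libraries at the ends: wild-type replicate 1 lowest, wild-type replicate 2 highest and mutant replicate 2 next to it. Against the median CPM of the other 5 libraries, wild-type replicate 1 was 34.1-fold lower for Col1a1, 26.3-fold lower for Col3a1 and 13.4-fold lower for Col1a2.

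Sorted by that ratio, 6 of the 42 collagens with a mean of at least 0.5 CPM were at least 4-fold lower in wild-type replicate 1, against 1.0% of all genes measured the same way. These were Col1a1, Col3a1, Col1a2, Col13a1 (5.42-fold), a membrane-spanning collagen, Col8a2 (4.67-fold), a short-chain network collagen, and Col4a6 (4.66-fold), a basement membrane chain. Another 5 were 2- to 4-fold lower, against 2.6% of all genes: Col4a5 (3.80-fold), which shares trimers with Col4a6, the fibril-surface collagen Col12a1 (3.42-fold), and 3 of the 6 collagen VI chains, Col6a2 (2.90-fold), Col6a3 (2.33-fold) and Col6a1 (2.31-fold). The other collagen VI chains, Col6a4, Col6a5 and Col6a6, had log2 ratios of 0.57, 0.18 and 0.46. The remaining 31 lay within 2-fold, as did 95% of all genes, and no collagen was 2-fold or more higher, against 1.36%. Wild-type replicate 1 was the lowest of the 6 libraries for 18 collagens and wild-type replicate 2 the highest for 21, against 18.7% and 13.7% of all genes, and both held for 14 collagens against 5.23%. No test was made of this single library.

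The collagens within 2-fold of the other libraries included the most abundant ones. Col4a1 stood at 188, 360 and 215 CPM in wild-type replicates 1, 2 and 3 and at 249, 350 and 267 CPM in the mutant replicates. Col4a2 stood at 153, 242 and 151 CPM and at 179, 231 and 195 CPM. Wild-type replicate 1 was near wild-type replicate 3 for both, although wild-type replicate 2 was highest. Sums of vascular markers had a similar spread: 10 endothelial markers summed to 175, 287 and 180 CPM in wild-type libraries against 202 to 242 CPM in mutant ones, and 11 mural markers to 196, 312 and 213 CPM and to 234 to 300 CPM. Their part in the collagen IV values was not tested. Col9a3, Col11a1, Col11a2, Col15a1, Col19a1 and Col25a1 were all somewhat higher in wild-type replicate 1 than in the median of the others, with log2 ratios of 0.26, 0.49, 0.22, 0.10, 0.37 and 0.85.

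**Figure D2:**
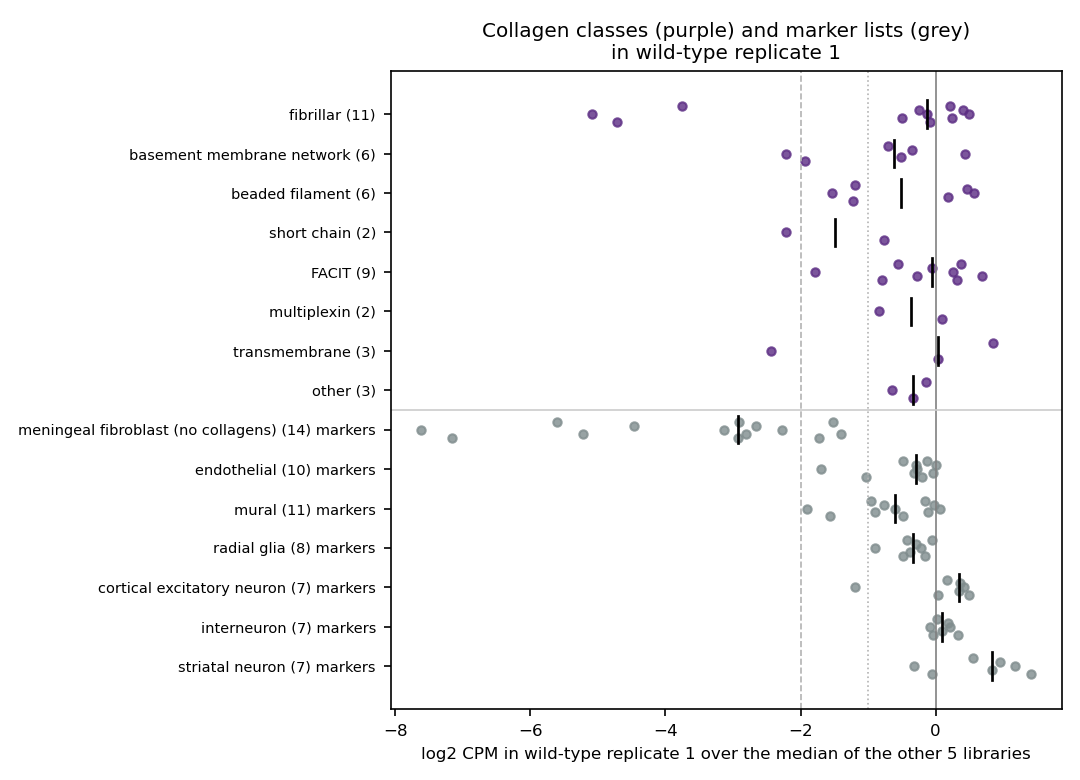
Log2 of the CPM in wild-type replicate 1 over the median of the other 5 libraries, 1 point per gene, with collagens by structural class in purple and marker lists in grey. Col1a1 (-5.09), Col3a1 (-4.72) and Col1a2 (-3.75) lie among the 14 meningeal markers (median -2.92), while the 9 FACIT collagens have a median of -0.05, with Col12a1 at -1.78, and the endothelial markers a median of -0.28.

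Neighbouring collagen genes were alike in this pattern in some places and unlike in others. On the X chromosome Col4a6 and Col4a5 lie head to head, 1308 bases apart, and their log2 ratios were -2.22 and -1.93. Col6a2 and Col6a1 on chromosome 10, 85161 bases apart, had -1.54 and -1.20. Col3a1 and Col5a2 lie tail to tail on chromosome 1 with 24614 bases between them, and their ratios were -4.72 and -0.50. Col5a2, a minor fibrillar chain that joins collagen I fibrils, was thus close to the other libraries where its neighbour was far below them. The sequence before the start of Col3a1 is shown because that gene is among the 3 steepest. It is from RefSeq on GRCm38.p6, chr1:45311288-45311537 on the plus strand, holds no annotated exon, and is 35.2% G and C. Capitals mark TATAAA, a common core promoter motif.
Col3a1 upstream: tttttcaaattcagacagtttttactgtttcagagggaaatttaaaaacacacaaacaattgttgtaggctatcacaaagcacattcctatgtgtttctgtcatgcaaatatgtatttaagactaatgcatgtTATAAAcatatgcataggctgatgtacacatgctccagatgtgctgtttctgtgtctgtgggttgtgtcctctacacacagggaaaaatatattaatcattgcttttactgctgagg

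Promoter windows of 300 bases (250 before to 50 after the start) were matched for 35 of the 44 collagens, as 38 windows. They were searched on both strands for TATAAA, for CCAAT and for GGGCGG, a GC box. TATAAA was in 5 of 38 collagen windows (13.2%, against 13.6% of all 32851 windows), namely those of Col3a1, Col13a1, Col11a2, Col10a1 and Col17a1. CCAAT was in 13 (34.2%, against 37.4%), and GGGCGG in 23 (60.5%, against 35.7%). The median GC content was 59.8% in collagen windows and 52.7% in all windows. Among the 6 genes at least 4-fold lower in wild-type replicate 1, 5 had a window: 2 held TATAAA (Col3a1 and Col13a1), 3 held GGGCGG (Col1a2, Col4a6 and Col8a2) and 1 held CCAAT (Col1a2). Among the 26 windows of collagens within 2-fold, 1 held TATAAA, 17 held GGGCGG and 10 held CCAAT. These are matches of letters in a window, with numbers too small to compare.

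Between genotypes, no collagen gene passed the threshold. Of 42 tested, 0 had an edgeR adjusted p below 0.05, where 18 of 16274 genes did (0.111%); the smallest adjusted p that any collagen had was 0.9996. DESeq2's Wald test and limma-voom also called 0. At an unadjusted p below 0.05 there were 4 collagens (9.52%), against 3.45% of all genes. Col8a1 and Col14a1 were higher in the mutant (1.71% of all genes were), and Col23a1 and Col5a1 lower (1.73%). The libraries of the genotypes did not overlap for 4 collagens (9.52%), against 7.93% of all genes. These were Col8a1 and Col14a1 on the higher side (4.18% of all genes) and Col23a1 and Col20a1 on the lower (3.75%). In the authors' deposited table, the smallest adjusted p-values among collagens were 0.561 for Col8a1, 0.685 for Col5a1 and 0.817 for Col23a1, and all others were 1.

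The counts in that paragraph moved with single wild-type libraries. Without wild-type replicate 2, the library highest in most fibrillar chains, 13 collagens had an unadjusted p below 0.05 (31.0%, against 5.24% of all genes), 12 of them higher in the mutant and Col25a1 lower. Those 12 were Col4a1, Col4a2, Col5a2, Col6a2, Col6a3, Col8a1, Col8a2, Col12a1, Col13a1, Col14a1, Col16a1 and Col26a1, set against wild-type replicates 1 and 3 alone. The smallest adjusted p there was 0.0552, for Col12a1. Without wild-type replicate 1, 5 collagens had an unadjusted p below 0.05 (11.9%, against 4.77%): Col8a1, Col15a1 and Col24a1 higher, and Col5a1 and Col23a1 lower. The median log2 fold change of the 42 collagens was 0.14 (-0.01 over all genes), with 27 above 0 (64.3%, against 48.7%). It was -0.11 (16 above 0) when wild-type replicate 1 was left out, 0.44 when wild-type replicate 2 was, and -0.09 when mutant replicate 2 was.

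**Figure D3:**
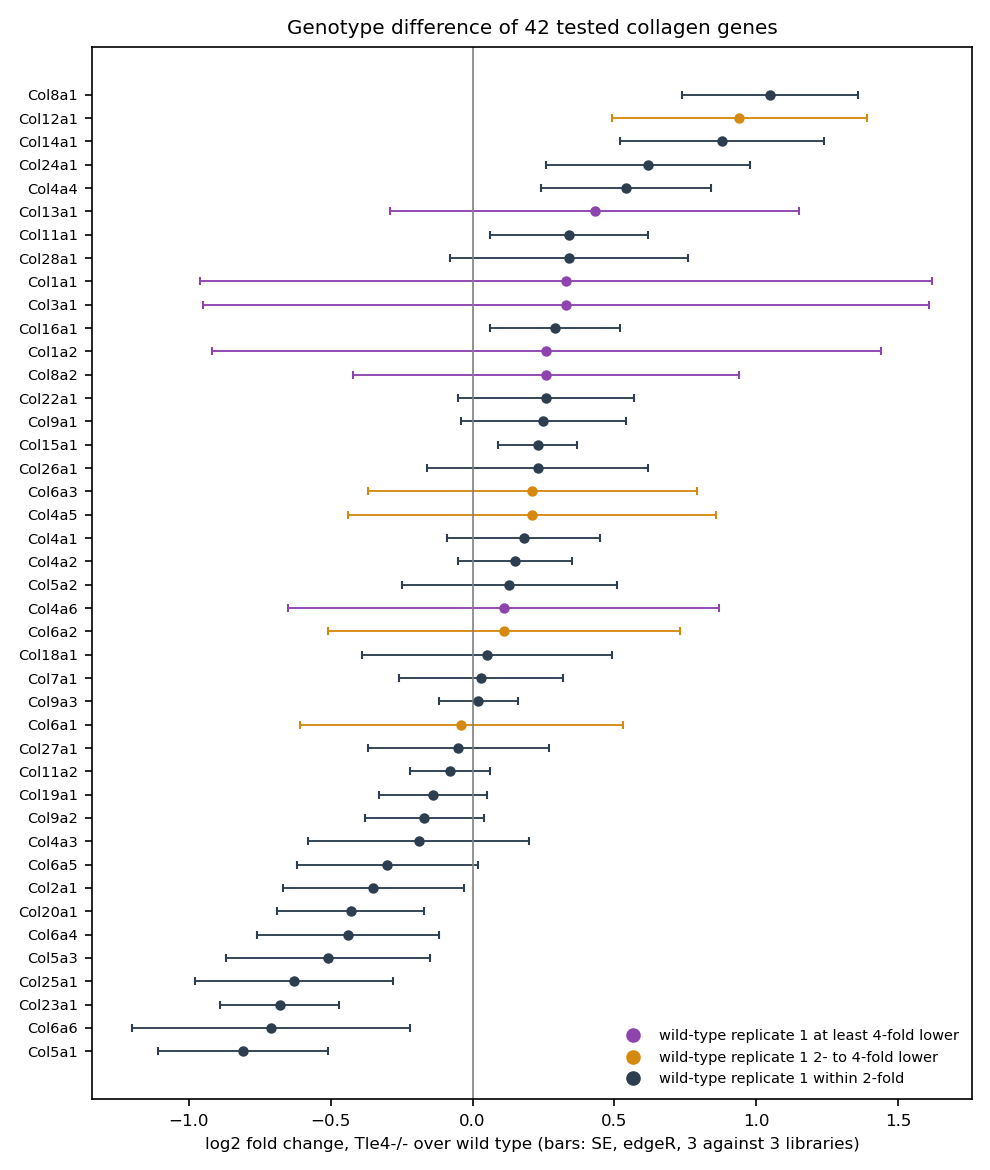
Log2 fold change of Tle4-/- over wild type for the 42 tested collagens, with bars of the SE from edgeR, coloured by how far wild-type replicate 1 lay below the other libraries. The bars of Col1a1, Col3a1 and Col1a2 span about 0 on both sides (SE 1.29, 1.28 and 1.18), while Col8a1 (1.05, SE 0.31) and Col23a1 (-0.68, SE 0.21) lie more than 3 SE from 0.

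Col8a1 had the smallest unadjusted p. It encodes a chain of collagen VIII, a short-chain collagen that forms hexagonal networks around vessels and under endothelia, and it lies on chromosome 16 from 57624258 to 57754737 (minus strand, ENSMUSG00000068196). It stood at 1.94, 2.56 and 1.24 CPM in wild-type replicates 1, 2 and 3 and at 4.07, 4.55 and 3.34 CPM in the mutant replicates. All 3 mutant libraries were above all 3 wild-type ones (1.91 ± 0.661 against 3.99 ± 0.612 CPM, mean ± SD, n = 3 each). The fold was 2.07 (log2 fold change 1.05, SE 0.31, edgeR unadjusted p = 0.00808, adjusted p = 0.9996). With each library left out in turn the log2 fold change ran from 0.82 to 1.33, and the unadjusted p stayed below 0.05 in all 15 alternatives, with adjusted p from 0.463 to 1.0. Its partner Col8a2 stood at 0.407, 3.90 and 1.34 CPM in wild-type libraries against 1.68, 3.09 and 2.09 CPM in mutant ones, overlapping, with a log2 fold change of 0.26 (SE 0.68), and -0.21 with wild-type replicate 1 left out.

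Further collagens with higher mutant means included fibril-surface and minor fibrillar chains. Col14a1, which binds the surface of collagen I fibrils, stood at 0.968, 1.57 and 1.24 CPM in wild-type libraries against 1.92, 3.35 and 1.72 CPM in mutant ones, with no overlap. Its log2 fold change was 0.88 (SE 0.36, edgeR unadjusted p = 0.0372), and the unadjusted p was below 0.05 in 9 of 15 alternatives. It was not when wild-type replicate 1 (0.72), wild-type replicate 3 (0.87) or mutant replicate 2 (0.53) was left out, nor with the DESeq2 Wald test or in either fit with a meningeal marker score as covariate. Col12a1, its close relative (chromosome 9, 79598991 to 79718831, minus strand), stood at 6.57, 22.6 and 9.24 CPM and at 27.6, 26.3 and 20.3 CPM. Wild-type replicate 2 lay inside the mutant range and the other wild-type libraries far below it. The log2 fold change was 0.94 (SE 0.45, edgeR unadjusted p = 0.0759). It was 1.65 without wild-type replicate 2 (SE 0.23, adjusted p = 0.0552) and 0.63 with that library kept and wild-type replicate 1 left out. Col24a1, a minor fibrillar chain, stood at 4.79, 2.33 and 1.88 CPM and at 3.60, 5.23 and 5.01 CPM, overlapping only through wild-type replicate 1. Its log2 fold change was 0.62 (SE 0.36), and 1.12 without that library (SE 0.30, unadjusted p = 0.00553, adjusted p = 0.7293).

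Among basement membrane collagens, Col15a1 stood at 64.4, 44.5 and 52.5 CPM in wild-type libraries against 66.7, 63.0 and 60.0 CPM in mutant ones. Wild-type replicate 1 lay within the mutant range and the other 2 wild-type libraries below it (log2 fold change 0.23, SE 0.14, edgeR unadjusted p = 0.132). With wild-type replicate 1 left out it was 0.38 (SE 0.13, unadjusted p = 0.0143, adjusted p = 0.9538). Col18a1, the other multiplexin and the source of endostatin, stood at 11.2, 34.5 and 20 CPM and at 16.7, 31.7 and 19.6 CPM. Its log2 fold change was 0.05 (SE 0.44), -0.27 without wild-type replicate 1 and 0.54 (SE 0.35) without wild-type replicate 2. Slc19a1, on the opposite strand, overlaps Col18a1 and had 398 to 550 counts, against 219 to 769 for Col18a1. Col4a1 and Col4a2 had log2 fold changes of 0.18 (SE 0.27) and 0.15 (SE 0.20), and their genotypes overlapped. With wild-type replicate 1 left out these were 0.01 and 0.04, and that of Col4a4, given next, was 0.36. Without wild-type replicate 2, Col4a1 was at 0.53 (SE 0.16, edgeR unadjusted p = 0.0116, adjusted p = 0.829). Col4a2 was then at 0.41 (SE 0.13, edgeR unadjusted p = 0.0132, adjusted p = 0.8476) and Col4a4 at 0.58 (SE 0.35). Col4a4, a chain known from kidney and inner ear basement membranes, stood at 1.78, 2.56 and 2.96 CPM and at 4.49, 2.88 and 3.23 CPM (log2 fold change 0.54, SE 0.30, unadjusted p = 0.102). Col4a3, its partner, had -0.19 (SE 0.39).

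Of the 3 tested membrane-spanning collagens, Col23a1 and Col25a1 had lower mutant means. Col23a1 (ENSMUSG00000063564; chromosome 11, 51289920 to 51583918, plus strand) encodes collagen XXIII, which can be shed from the cell surface. It stood at 23.6, 34.7 and 28.8 CPM in wild-type libraries against 13.9, 23.1 and 17.5 CPM in mutant ones. The genotypes did not overlap, though mutant replicate 2 was just below wild-type replicate 1. Means were 29.0 ± 5.54 and 18.2 ± 4.65 CPM (SD, n = 3 each), a fold of 0.626. The log2 fold change was -0.68 (SE 0.21, edgeR unadjusted p = 0.0104, adjusted p = 0.9996), and it ran from -0.89 to -0.51 with each library left out. Without wild-type replicate 2 the unadjusted p was 0.0509, and in the other 14 alternatives it was below 0.05. Col25a1, whose product is made by neurons and was first found in amyloid plaques, stood at 13.1, 7.23 and 10.9 CPM and at 4.02, 6.02 and 10.2 CPM. It overlapped through mutant replicate 3, with a log2 fold change of -0.63 (SE 0.35, unadjusted p = 0.111), and -0.42 with wild-type replicate 1 left out. Col13a1 was at 0.306 to 2.83 CPM in wild-type libraries against 0.982 to 2.56 CPM in mutant ones.

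Sums of neuronal marker lists are given for comparison. Sums of 7 striatal neuron markers were 109, 80.8 and 132 CPM in wild-type libraries against 76.8, 61.2 and 49.9 CPM in mutant ones, and 5 of the 7 were lower at an unadjusted p below 0.05 (1.73% of all genes were). The others were Penk at -0.64 and Drd1 at 0.01. Sums of 7 interneuron markers were 527 to 569 CPM and 462 to 536 CPM, and those of 7 cortical excitatory neuron markers 2190 to 2480 and 1970 to 2510 CPM. The part of the striatal difference in the values of Col23a1, Col25a1 and Col5a1 was not tested. Col20a1, a FACIT chain, was lower in all 3 mutant libraries, at 4.94, 3.46 and 3.22 CPM in the wild type against 3.04, 2.88 and 2.71 CPM (log2 fold change -0.43, SE 0.26, unadjusted p = 0.131), and the change was -0.22 with wild-type replicate 1 left out. An overlapping row on the same strand had 81 to 250 counts, and whether reads were shared between them is not given in the sources used here.

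**Figure D4:**
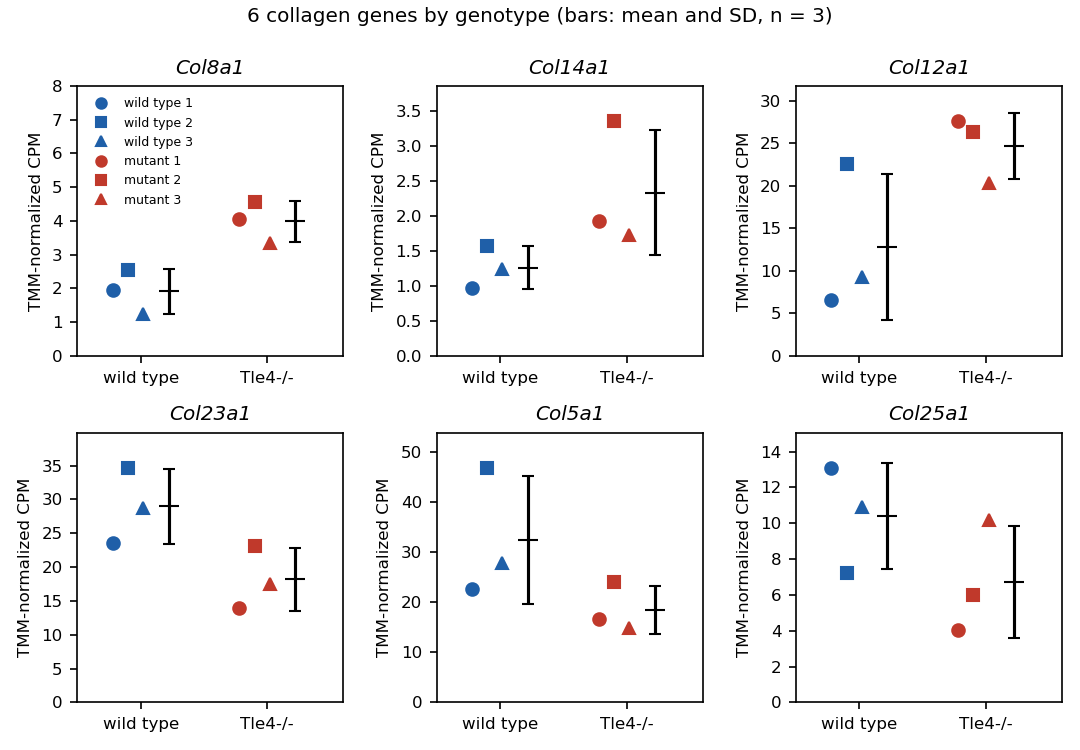
TMM-normalized CPM of 6 collagen genes in each library, with bars for the mean and SD (n = 3 per genotype). Col8a1 is higher in all 3 mutant libraries (3.34 to 4.55 against 1.24 to 2.56 CPM) and Col23a1 lower in all 3 (13.9 to 23.1 against 23.6 to 34.7 CPM).

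Col5a1 encodes the chain of collagen V that starts and limits the thickness of collagen I fibrils, and lies on chromosome 2 from 27886425 to 28039514 (ENSMUSG00000026837, plus strand). It stood at 22.7, 46.9 and 27.8 CPM in wild-type libraries against 16.7, 24.0 and 14.8 CPM in mutant ones. Mutant replicate 2 lay just above wild-type replicate 1, and otherwise the mutant libraries were lower (32.5 ± 12.8 against 18.5 ± 4.83 CPM, SD, n = 3 each). The fold was 0.569 (log2 fold change -0.81, SE 0.30, edgeR unadjusted p = 0.0267, adjusted p = 0.9996). It ran from -1.04 to -0.45 with each library left out, with -1.02 when wild-type replicate 1 was left out and -0.45 when wild-type replicate 2 was. The unadjusted p was 0.0883 in the latter case, and 0.101 and 0.0862 without mutant replicates 1 and 3. Its partner Col5a2, which joins it in the same trimer, stood at 15.3, 37.3 and 16.4 CPM and at 20.7, 33.2 and 21.7 CPM, overlapping, with a log2 fold change of 0.13 (SE 0.38), and -0.09 with wild-type replicate 1 left out. Col5a3, the minor chain of that collagen, stood at 2.44, 3.14 and 2.79 CPM and at 1.03, 2.67 and 2.19 CPM, overlapping, with -0.51 (SE 0.36, unadjusted p = 0.189). The antisense rows 2810430I11Rik and Gm13372, which overlap Col5a1, each had 6 or fewer counts in every library.

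The pair was also compared as a ratio, since both chains are counted in the same libraries. Of the counts of Col5a1 and Col5a2 together, Col5a1 took 59.7%, 55.8% and 62.9% in wild-type replicates 1, 2 and 3 and 44.7%, 41.9% and 40.6% in the mutant replicates. The exact 95% binomial intervals, which cover counting error only, were 56.0% to 63.2%, 53.5% to 58.0% and 59.5% to 66.2% in the wild type, and 41.2% to 48.2%, 39.0% to 44.9% and 36.9% to 44.3% in the mutant. No wild-type interval met a mutant one. Against the median of the other libraries, wild-type replicate 1 had log2 ratios of -0.08 for Col5a1 and -0.50 for Col5a2. The part of cell mixture in the share of Col5a1 was not tested. Between genotypes, the log2 ratio of Col5a1 to Col5a2 differed by -1.0, and by -0.99 without wild-type replicate 1. It was 0.55 ± 0.21 in the wild type and -0.44 ± 0.12 in the mutant (SD). An exact 2-sided permutation test gave p = 0.1, the smallest that 3 libraries against 3 allow, and 0.433 after Benjamini-Hochberg adjustment over the 13 pairs compared.

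The sequence before the start of Col5a1 is shown because Col5a1 is the chain of this pair whose genotype means differed more. It is from RefSeq on GRCm38.p6, chr2:27886175-27886424 on the plus strand, holds no annotated exon and is 76.4% G and C. Capitals mark GGGCGG or its reverse complement CCGCCC. Unlike the sequence before Col3a1, it holds no TATAAA. Col5a2 had no window to print.
Col5a1 upstream: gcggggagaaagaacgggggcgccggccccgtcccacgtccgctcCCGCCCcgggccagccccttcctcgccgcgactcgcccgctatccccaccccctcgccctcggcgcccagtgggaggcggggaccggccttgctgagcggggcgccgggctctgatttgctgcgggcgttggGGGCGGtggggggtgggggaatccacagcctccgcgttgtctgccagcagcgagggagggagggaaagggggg

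The pairs were chosen after the data were seen, as chains of 1 trimer or class. In 3 of the 13 the genotypes did not overlap: Col5a1 with Col5a2, Col6a1 with Col6a3, and Col4a3 with Col4a4. Under random relabelling of the libraries, any 1 pair has a probability of 0.1 of not overlapping. Among single genes 7.93% did not overlap, and no such share was computed for other pairs of genes. Col6a1 took 58.6%, 59.7% and 64.4% of the Col6a1 and Col6a3 counts in the wild type and 57.0%, 55.3% and 58.3% in the mutant, a small shift (log2 ratio difference -0.24, exact permutation p = 0.1). Col4a3 took 32.7%, 23.0% and 16.7% of the Col4a3 and Col4a4 counts and 15.8%, 14.1% and 16.2% in the mutant, at low counts (difference -0.75, and -0.42 without wild-type replicate 1, exact permutation p = 0.1). Col4a4 and Col4a3 lie head to head on chromosome 1 with 71 bases between their starts, shown because the pair shares this interval. It is from RefSeq on GRCm38.p6, chr1:82586850-82586920 read on the minus strand, and holds none of the 3 motifs.
Col4a4/Col4a3 interval: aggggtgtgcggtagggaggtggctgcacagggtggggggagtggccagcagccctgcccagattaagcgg

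The abundant collagen IV pair kept a narrow ratio. Col4a1 took 55.1%, 59.8% and 58.7% of the Col4a1 and Col4a2 counts in the wild type and 58.3%, 60.2% and 57.8% in the mutant (57.9% ± 2.47 and 58.8% ± 1.31, SD, n = 3 each). The log2 ratio difference was 0.05, although the level of each chain varied up to nearly 2-fold between libraries. The starts of both genes overlap on chromosome 8 by 22 bases, in opposite directions, and those bases are shown as the place the pair shares. They are from RefSeq on GRCm38.p6, chr8:11312805-11312826 on the plus strand, and capitals mark GGGCGG.
Col4a1/Col4a2 shared start: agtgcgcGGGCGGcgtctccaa

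In other pairs too, wild-type replicate 1 lay outside the range of the other 5 libraries. Col1a1 took 21.7% of the Col1a1 and Col1a2 counts in wild-type replicate 1 (exact 95% interval 14.9% to 29.8%, from 129 counts) and 35.7% to 41.9% in the other 5 libraries. Col15a1 took 85.2%, 56.3% and 72.3% of the Col15a1 and Col18a1 counts in the wild type and 80.0%, 66.5% and 75.4% in the mutant. Col8a1 took 82.6%, 39.6% and 47.9% of the collagen VIII counts and 70.7%, 59.6% and 61.5%. In these 3 pairs wild-type replicate 1 was at one end and the mutant libraries lay within or next to the wild-type range. It lay inside the range of the other libraries for Col11a1 with Col11a2 (64.4%, against 54.2% to 74.6%) and for Col9a2 with Col9a3 (11.5%, against 8.79% to 13.3%).

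**Figure D5:**
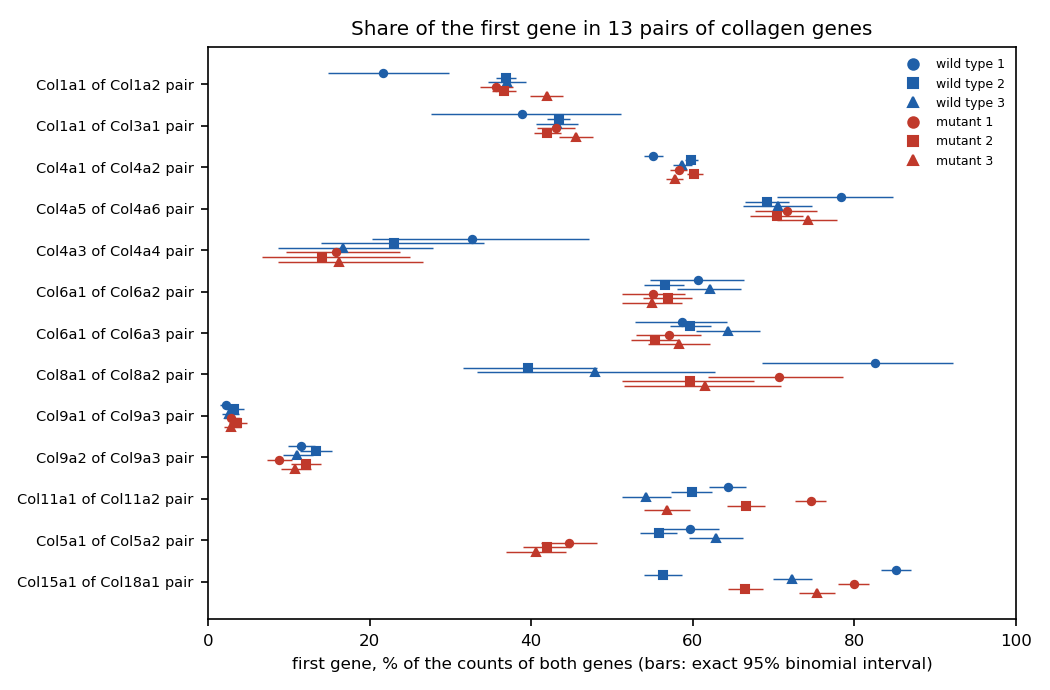
Share of the first gene in the counts of both genes for 13 pairs of collagen genes, 1 point per library with exact 95% binomial intervals. The Col5a1 and Col5a2 pair splits by genotype (55.8% to 62.9% against 40.6% to 44.7%), and the Col4a1 and Col4a2 pair spans only 55.1% to 60.2%.

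For the most variable fibrillar chains the genotype difference was small beside its error. Col1a1 was at 42.8 ± 47.0 CPM in wild-type libraries against 54.1 ± 21.1 CPM in mutant ones (SD, n = 3 each), with a log2 fold change of 0.33 (SE 1.29, edgeR unadjusted p = 0.808). Col1a2 and Col3a1 had log2 fold changes of 0.26 (SE 1.18) and 0.33 (SE 1.28). Leaving out wild-type replicate 1 turned them to -0.23, -0.30 and -0.23, and leaving out mutant replicate 2 turned them to -0.01, -0.16 and -0.08. Leaving out wild-type replicate 2 gave 1.65, 1.53 and 1.63. The sign of these differences thus depended on single libraries of either genotype. Col6a1 stood at 8.86, 40.8 and 20.2 CPM and at 16.4, 31.1 and 20.5 CPM, with a log2 fold change of -0.04 (SE 0.57), and -0.43 with wild-type replicate 1 left out. Col6a6, the lowest of the beaded filament chains tested, stood at 0.611, 0.987 and 0.430 CPM and at 0.608, 0.366 and 0.261 CPM, overlapping, with -0.71 (SE 0.49, unadjusted p = 0.18).

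The other members stood at low to moderate levels with overlapping genotypes. Col11a2, the partner of Col11a1, ran from 23.4 to 31.2 CPM over the 6 libraries, Col26a1 from 14.5 to 33.0 CPM, and Col16a1, a FACIT chain, from 10.5 to 18.2 CPM. Col7a1, which forms the anchoring fibrils of skin, ran from 8.25 to 15.3 CPM, and Col19a1, made by some cortical interneurons, from 7.39 to 10.9 CPM. Lower still were Col22a1 at 3.98 to 9.31 CPM, Col27a1 at 2.43 to 4.98 CPM, Col6a4 at 1.41 to 3.16 CPM, Col6a5 at 0.994 to 1.84 CPM and Col28a1 at 0.484 to 1.17 CPM. For these 10 genes the log2 fold changes between genotypes lay between -0.44 (Col6a4) and 0.34 (Col28a1), with 0.2 (Col6a4) as the smallest unadjusted p in edgeR. Wild-type replicate 1 was within 2-fold of the other libraries for all 10.

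By structural class, no class held more than 1 collagen at an unadjusted p below 0.05. It was Col5a1 among 11 fibrillar chains, Col14a1 among 9 FACIT chains, Col8a1 of 2 tested short-chain collagens and Col23a1 of 3 tested membrane-spanning ones. The 6 basement membrane chains, 6 beaded filament chains, 2 multiplexins and 3 others (Col7a1, Col26a1 and Col28a1) held none. Median log2 fold changes were 0.13 for fibrillar, 0.17 for basement membrane, -0.17 for beaded filament and 0.25 for FACIT chains, beside -0.01 over all genes. Without wild-type replicate 1 those of the fibrillar and basement membrane chains were -0.23 and -0.03, that of the beaded filament chains was -0.28 (0 of 6 above 0), and that of the FACIT chains was 0.20. Col10a1 and Col17a1 were too low to test.

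Genes that build, bind and break down collagen were counted in the same fit. Of 18 genes that modify and fold the chains, 0 passed the threshold and 0 had an unadjusted p below 0.05. Serpinh1, the collagen chaperone HSP47, stood at 21.6, 43.4 and 19.3 CPM in wild-type libraries against 32.5, 39.2 and 35.3 CPM in mutant ones (log2 fold change 0.34, SE 0.30), and P4ha2, a proline hydroxylase, had -0.43 (SE 0.20, unadjusted p = 0.06). Of 13 genes for propeptide removal and cross-linking, 1 passed, where 0.111% of all genes did. Adamts14, which trims the N-terminal propeptide of fibrillar collagens, rose from 2.95, 3.28 and 2.85 CPM to 9.96, 9.37 and 7.67 CPM (fold 2.97, log2 fold change 1.57, SE 0.21, edgeR adjusted p = 0.0345). This p exceeded 0.05 with any 1 library left out (0.0749 to 0.156), with log2 fold changes from 1.49 to 1.67. Adamts2 and Adamts3, with the same substrate type, had -0.38 (SE 0.17) and -0.19 (SE 0.12). Lox, the enzyme that starts cross-links, had the library pattern of collagen I, at 0.662, 28.1 and 11.1 CPM in wild-type libraries against 9.36, 20.7 and 11.8 CPM in mutant ones.

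Of 10 tested collagen receptors, 0 passed the threshold and 0 had an unadjusted p below 0.05. Adgrg1, the receptor for collagen III on radial glia and young neurons, stood at 154, 126 and 116 CPM in wild-type libraries against 118, 139 and 149 CPM in mutant ones (log2 fold change 0.03, SE 0.13). In wild-type replicate 1, where Col3a1 was 26.3-fold lower, Adgrg1 was 1.22-fold above the median of the other libraries. That is within 2-fold, as for 95% of all genes, and a link between Col3a1 and Adgrg1 was not tested. Ddr1, a receptor kinase, had -0.03 (SE 0.13). Itga11 and Ddr2, receptors of fibroblasts for fibrillar collagen, followed Col1a1 in that library, with log2 ratios of -2.32 and -1.88 to the other libraries.

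Of 8 tested genes for collagen breakdown, 0 passed and 2 had an unadjusted p below 0.05 (3.45% of all genes did). Both encode inhibitors of metalloproteinases and both were lower in the mutant with no overlap (7.93% of all genes did not overlap). Timp3 stood at 83, 102 and 92.9 CPM and at 54.4, 78.7 and 61.5 CPM (log2 fold change -0.52, SE 0.15, unadjusted p = 0.00679), and Timp2 at 419, 411 and 387 CPM and at 300, 358 and 358 CPM (-0.26, SE 0.10, unadjusted p = 0.0233, and 0.0542 with wild-type replicate 1 left out). Mmp2, a gelatinase, had 0.47 (SE 0.22, unadjusted p = 0.0603). Of 13 basement membrane partners (laminins, nidogens, perlecan, agrin and Sparc), 0 passed. All 13 were above 0, as were 48.7% of all genes, with a median log2 fold change of 0.10, but without wild-type replicate 1 only 5 were, with a median of -0.05. Nid2, which links laminin to collagen IV, stood at 22.3, 56.6 and 30.3 CPM in wild-type libraries against 38.1, 58.3 and 40.3 CPM in mutant ones (log2 fold change 0.32, SE 0.36), and Lama2 had 0.25 (SE 0.26). With wild-type replicate 1 left out these were 0.07 and 0.01.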

How the data were processed

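The authors deposited 1 table, which gives counts and FPKM of every gene in the 6 libraries and, from their genotype test, a p-value with its adjusted value, per the file headers. Tools named in the submitters' processing notes are edgeR, StringTie and HISAT2 2.0.4, and the builds there are mm10 and GRCm38.p4. How reads were counted, with or without strand, and on which annotation release, is not given in the sources used here. In 25 rows a symbol turned into a date was restored from the gene ID. All 44 collagen IDs are in GENCODE M21.

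The deposited counts were fitted in R 4.3.3 by edgeR 4.0.16: filterByExpr (16274 genes kept), TMM scaling, a robust quasi-likelihood fit of the 6 libraries, a 2-sided test, Benjamini-Hochberg adjustment over all genes tested and a threshold of 0.05. The SE of a log2 fold change is its size divided by the square root of the F statistic. Levels within a gene are TMM-normalized CPM, and the ranking of the collagens uses deposited FPKM. Where CPM of different genes are set side by side, gene length is not accounted for. Ratios to the other libraries used an offset of 0.05 CPM. Pair ratios had 0.5 added to each count. Alternatives were DESeq2 1.42.0 size factors and Wald test, limma 3.58.1 voom, other filters, no X and Y genes, a replicate block, a meningeal score as covariate and each library left out; that score without wild-type replicate 1 was added after seeing the data.

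The members, lists and named genes were chosen with earlier results of these data known. Named with full values are the 12 collagens of smallest p and 10 taken whatever their result (Col1a1, Col1a2, Col3a1, Col4a1, Col4a2, Col6a1, Col11a1, Col18a1, Col23a1 and Col25a1). Up to 4 genes of smallest p per pathway list were also selected, with Serpinh1, Adgrg1 and Ddr1, several without values by library above. Of these, Colgalt1, Mia3, Loxl4, Lair1, Itga2 and Ctsk are not described above. Their genotypes overlapped except for Colgalt1 (log2 fold change 0.18, SE 0.1) and Lair1 (-0.72, SE 0.42), where 7.93% of all genes did not overlap. Other genes named were chosen after their values were seen. Promoter windows are from RefSeq, GRCm38.p6.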

Additional observations from a re-analysis of the deposited data

How the results depend on the processing

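No collagen passed the adjusted threshold under any of the 15 alternatives. Over all genes, 18 passed, 58 with the DESeq2 Wald test, 9 with the replicate block and 8 to 19 with 1 library left out. Deviations of same-numbered libraries from their genotype means correlated at -0.063, 0.1 and -0.018, and those of differently numbered ones at -0.089 to 0.099. With 3 libraries per genotype, these values cannot show whether the replicate numbers pair the animals. Collagens at an unadjusted p below 0.05 numbered 4 (9.52%, against 3.45% of all genes). They numbered 6 with the replicate block, 6 with the meningeal score and 7 with that score and no wild-type replicate 1. No share of all genes is given here for those fits, so these counts have no background. With 1 library left out the count was 3 to 13. The 13 came without wild-type replicate 2, where 5.24% of all genes had such a p. The median collagen log2 fold change of 0.14 ran from -0.11 to 0.44 with 1 library left out. The pathway gene past the threshold, Adamts14, was not called with the meningeal score, with that score and no wild-type replicate 1, with the replicate block or with any 1 library left out, which gave 0 calls each. The genes below that changed sign had log2 fold changes smaller than their SE in the main fit, but some moved widely. Col6a1 was at 0.14 with limma-voom, 0.15 with the replicate block and -0.43 to 0.65 with 1 library left out. Col18a1 was at -0.18 with the meningeal score, -0.02 with that score and no wild-type replicate 1, and -0.27 to 0.54 with 1 library left out. That range was -0.23 to 1.65 for Col1a1, -0.30 to 1.53 for Col1a2, -0.23 to 1.63 for Col3a1, -0.11 to 0.23 for Itgb1, -0.01 to 0.66 for Itga10, -0.01 to 0.25 for Lama5, -0.02 to 0.27 for Lama4, -0.05 to 0.16 for Adgrg1 and -0.15 to 0.05 for Ddr1. The causes were not tested. The 6 collagens at least 4-fold lower in wild-type replicate 1 became 4 on deposited FPKM with 0.05 added (6 with nothing added), 7 against the other wild-type libraries alone and 4 against the lowest other library. With 3 libraries per genotype, exact tests cannot go below 0.1, and counts set wide intervals for Col4a3, Col6a6 and Col28a1.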
